A study of Sus scrofa with 12 samples.

Results

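The Wnt genes described here are the ligands, receptors, antagonists and intracellular effectors of Wnt signalling measured in porcine aortic valve interstitial cells (paVICs), the fibroblast-like cells that populate the aortic valve leaflet. Members were the rows of the count table named for a numbered WNT ligand, a numbered Frizzled receptor, a secreted frizzled-related protein (SFRP1 to SFRP5) or a Dickkopf protein (DKK1 to DKK4), together with 24 further genes listed by name, provided that the row held at least 60 counts over all 12 libraries. Of 57 rows that carried such a name, 45 met this minimum, and all 45 were among the 13216 genes tested of the 31908 rows in the table. Of the listed names, 3 (TCF7L1, NKD2 and RNF43) had no row under that symbol. FZD10, with 99 counts in all, was the member closest to the minimum, and WNT3, with 59 counts, fell just outside it.

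Wnt proteins are secreted, lipid-modified ligands that bind Frizzled receptors. In the canonical branch, a ligand that engages a Frizzled together with LRP5 or LRP6 inactivates the destruction complex of APC, AXIN and GSK3B, so that beta-catenin (CTNNB1) accumulates and acts with TCF/LEF factors on transcription. In other branches, ligands such as WNT5A act through ROR1, ROR2 or RYK on the cytoskeleton and calcium. Wnt signalling has been studied in valve calcification because beta-catenin activity is linked to bone-type differentiation.

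The cells came from 3 primary isolations, each from the pooled valves of 6 pig hearts, and each isolation gave 1 library of each of 4 groups. Cells were wild type and were cultured for 24 h in medium with 1% bovine growth serum. The vehicle group received 0.6% DMSO and 0.1% ethanol, the LPC group 10 µM lysophosphatidylcholine (a lipid of oxidised lipoproteins that is used to calcify valve cells in culture), the dantrolene group 60 µM dantrolene (a blocker of the ryanodine receptor, a calcium release channel), and the LPC + dantrolene group both agents. LPC was dissolved in ethanol and dantrolene in DMSO, cells given 1 agent also received the vehicle of the other, and the design asked what each agent did against vehicle and whether dantrolene altered the response to LPC. Replicates 1, 2 and 3 of each group were taken as isolations 1, 2 and 3, which were done on different days. All comparisons with vehicle share the same 3 vehicle libraries.

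The libraries held between 16489684 and 24105935 counts. Levels are given in CPM, counts per 1e6 counts of the library after scaling by the trimmed mean of M values (TMM). CPM are not divided by transcript length, so any order given between genes is an order of counts only. The 10 fibroblast markers checked were all measured and summed to between 44542 and 81806 CPM. The 4 measured cardiomyocyte markers summed to at most 0.717 CPM. Of the 7 leukocyte markers, PTPRC, CD163 and CD3E had no count, and the whole list summed to between 12.6 and 28.8 CPM. The endothelial markers summed to between 129 and 165 CPM in vehicle and 97.1 and 136 CPM with LPC. They summed to between 112 and 121 CPM with dantrolene and 99.7 and 105 CPM with LPC + dantrolene. The 5 smooth muscle markers, which activated valve interstitial cells also make, summed to between 2165 and 4291 CPM in vehicle, 2069 and 3760 CPM with LPC, 1695 and 2170 CPM with dantrolene, and 900 and 2861 CPM with LPC + dantrolene. Replicate 2 of the LPC + dantrolene group stood apart: it held the highest or the lowest level of 17 of the 45 members (37.8%) and of 45.1% of all genes tested. That library and the 3 vehicle libraries had the 4 lowest TMM factors, 0.863 to 0.918 against 0.923 to 1.15 in the other 8. Mitochondrial genes took 1.24% to 2.12% of the counts in vehicle and 1.53% to 4.17% in the other libraries. Results that rest on replicate 2 of LPC + dantrolene are given with and without it.

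**Figure D1:**
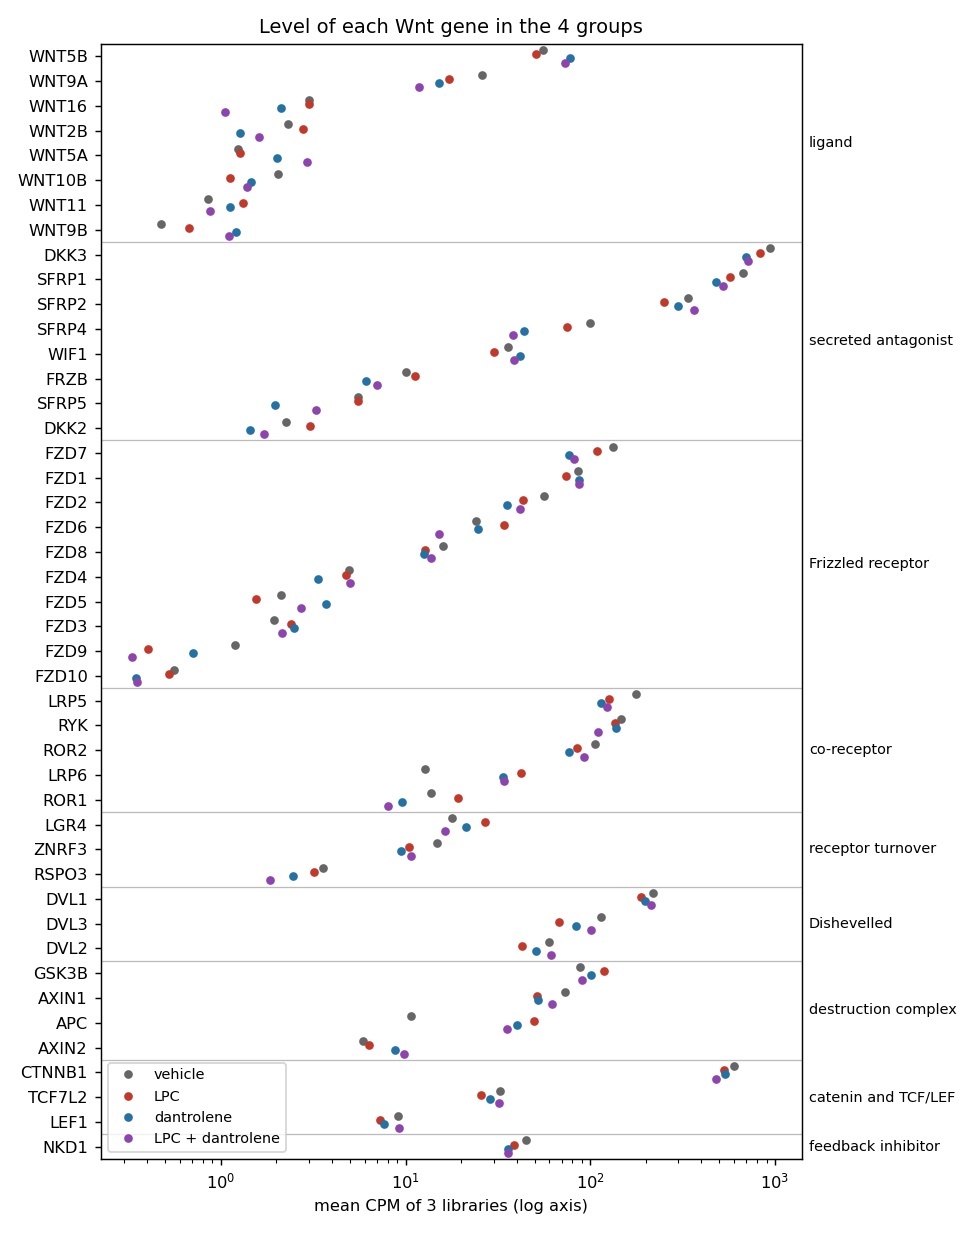
Mean level of each of the 45 Wnt genes in the 4 groups, in CPM on a log axis, with genes grouped by role and each point the mean of 3 libraries. The vehicle points of APC and LRP6 lie well to the left of the 3 treated groups, whereas for most genes the 4 points lie close together.

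The ligand genes were few in these cells. Of 18 WNT rows, 8 were members, and WNT1, WNT7A, WNT8A, WNT8B and WNT10A had no count in any library, where 3 counts would be 0.114 to 0.186 CPM. Among the members, WNT5B ranged from 40.3 to 95.7 CPM and WNT9A from 6.94 to 30.0 CPM, and the other 6 ligands did not exceed 4.41 CPM in any library. WNT5A, the ligand most often tied to the non-canonical branch, was at 1.23 ± 0.19 CPM in vehicle (SD, n = 3). The secreted antagonists gave more counts, and most of them bind Wnt proteins or LRP5 and LRP6 outside the cell. DKK3, an atypical Dickkopf placed in this group by its name, was at 941 ± 170 CPM in vehicle. SFRP1 was at 675 ± 88.5 CPM, SFRP2 at 338 ± 125 CPM and SFRP4 at 100 ± 37.9 CPM in vehicle. DKK1 and DKK4, in contrast, had no count. All 10 Frizzled rows were members, and FZD7, at 132 ± 12.9 CPM, gave the most counts of them, length not considered. CTNNB1 was at 601 ± 145 CPM. The cells thus carried RNA for receptors, relay proteins and transcription partners at each step, and the plot of group means by role shows that this held in each group.

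**Figure D2:**
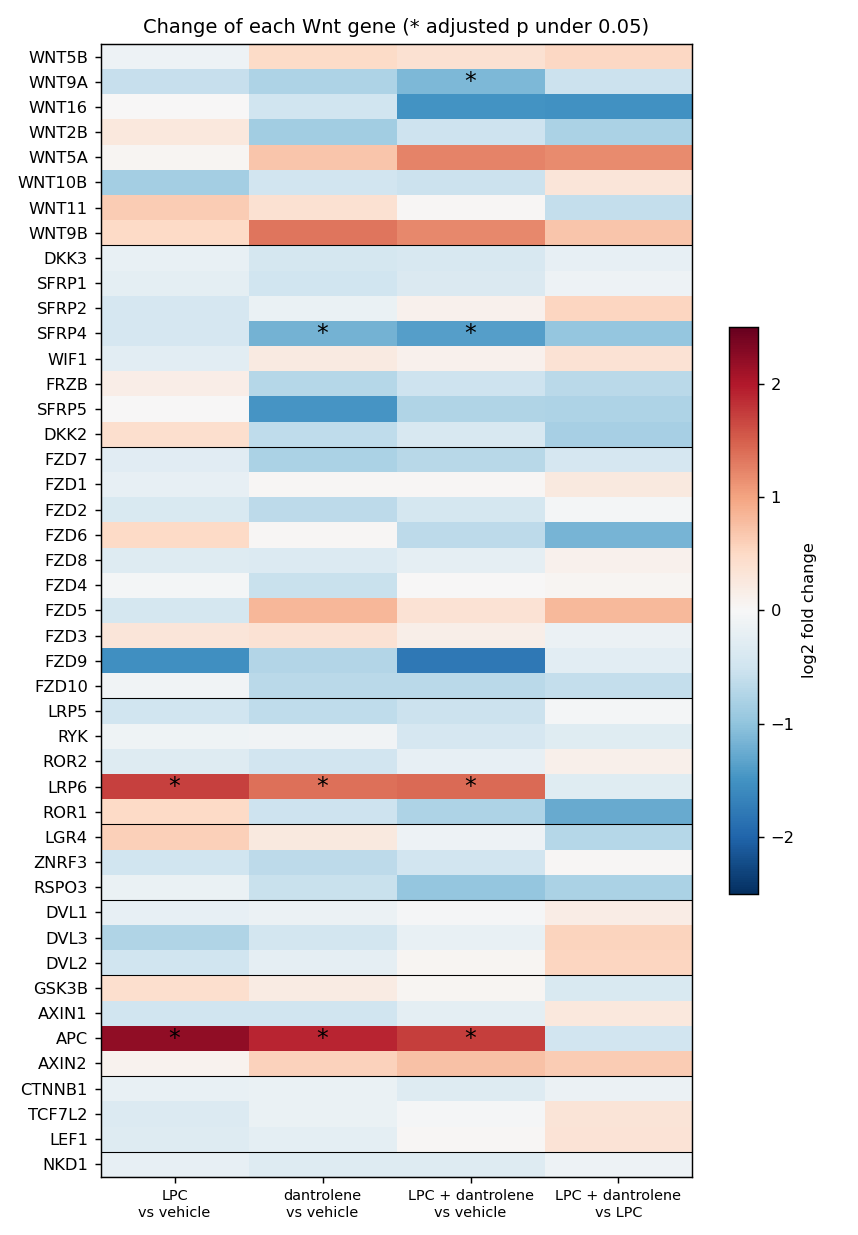
Log2 fold change of each of the 45 Wnt genes (rows, by role and in the order of the plot of levels) in 4 comparisons (columns), red for higher and blue for lower, with an asterisk where the adjusted p was under 0.05. APC and LRP6 carry asterisks in all 3 comparisons with vehicle, SFRP4 in both with dantrolene and WNT9A in one, and the comparison of LPC + dantrolene with LPC carries none.

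Only 4 of the 45 genes passed the test in a comparison with vehicle: APC and LRP6 rose, and SFRP4 and WNT9A fell. A gene was called where its p from the quasi-likelihood test of edgeR, adjusted by Benjamini-Hochberg over the 13216 genes, was under 0.05. With LPC, 2 of the 45 members rose (4.44%) against 8.54% of all genes tested, and none fell against 0.144%. DESeq2 likewise called none lower with LPC, and 1 member, DVL3, was lower at an unadjusted p under 0.05. Dantrolene gave 2 members higher, also 4.44%, against 7.54% of all genes, and 1 member lower (2.22%) against 1.26%. Under LPC + dantrolene 2 members were higher (4.44%) against 6.23%, and 2 were lower (4.44%) against 0.9%. The shares of Wnt genes that rose were thus below those of all genes, and the shares that fell rested on 1 or 2 genes. The median log2 fold change of the members was -0.19 with LPC, -0.35 with dantrolene and -0.24 with LPC + dantrolene, beside -0.18, -0.11 and -0.08 over all genes tested. Scaled on total counts alone, without TMM, the members' medians were -0.02, -0.12 and -0.07 and those of all genes -0.002, 0.13 and 0.12.

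APC, the large scaffold protein of the destruction complex (ENSSSCG00000014207, chr2:116913354-116985303 in the RefSeq annotation of Sscrofa11.1), changed more than any other member with LPC. Its level was 12.3, 11.3 and 8.54 CPM in the vehicle libraries and 50.5, 49.8 and 47.9 CPM in the LPC libraries. The dantrolene libraries held 21.7, 67.6 and 31.5 CPM, and those with LPC + dantrolene 49.2, 10.1 and 47.1 CPM. All LPC and dantrolene libraries were above all vehicle libraries, and replicate 2 of LPC + dantrolene alone lay within the vehicle range. The rise was 4.62-fold with LPC, a log2 fold change of 2.21 ± 0.39 (SE) with an adjusted p of 1.48e-05 by edgeR's quasi-likelihood test. With dantrolene it was 3.77-fold (log2 1.91 ± 0.38, adjusted p = 0.00019), and with LPC + dantrolene 3.32-fold (log2 1.73 ± 0.38, adjusted p = 0.000761). Without replicate 2 of LPC + dantrolene the last value became 2.22 on the log2 scale. The dantrolene call rested on replicate 2 of dantrolene, without which the log2 fold change was 1.31 and the adjusted p 0.0523. In each comparison with vehicle the direction of the APC change held in all 3 isolations, except in isolation 2 of LPC + dantrolene.

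The other parts of the destruction complex did not pass the test in any comparison. GSK3B, the kinase that marks beta-catenin for breakdown, was at 87.6 ± 21.9 CPM in vehicle, 118 ± 8.52 CPM with LPC, 101 ± 16.5 CPM with dantrolene and 90.2 ± 32.2 CPM with LPC + dantrolene (SD, n = 3). Its lowest level, 53.1 CPM, was in replicate 2 of LPC + dantrolene. AXIN1, the second scaffold, stayed between 45.3 and 99.9 CPM. AXIN2 is itself a transcriptional target of beta-catenin and is commonly read as a gauge of canonical signalling. It was at 6.92, 4.56 and 6.28 CPM in vehicle and 6.66, 5.48 and 6.84 CPM with LPC, so the LPC libraries lay within the vehicle range. With dantrolene AXIN2 was at 10.6, 5.94 and 9.93 CPM, and with LPC + dantrolene at 6.37, 16.2 and 6.87 CPM, the highest value again in replicate 2. The AXIN2 log2 fold changes were 0.10 with LPC (SE 0.38, adjusted p = 0.911), 0.57 with dantrolene (SE 0.38, adjusted p = 0.527) and 0.73 with both (SE 0.38, adjusted p = 0.387), all by edgeR's quasi-likelihood test.

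**Figure D3:**
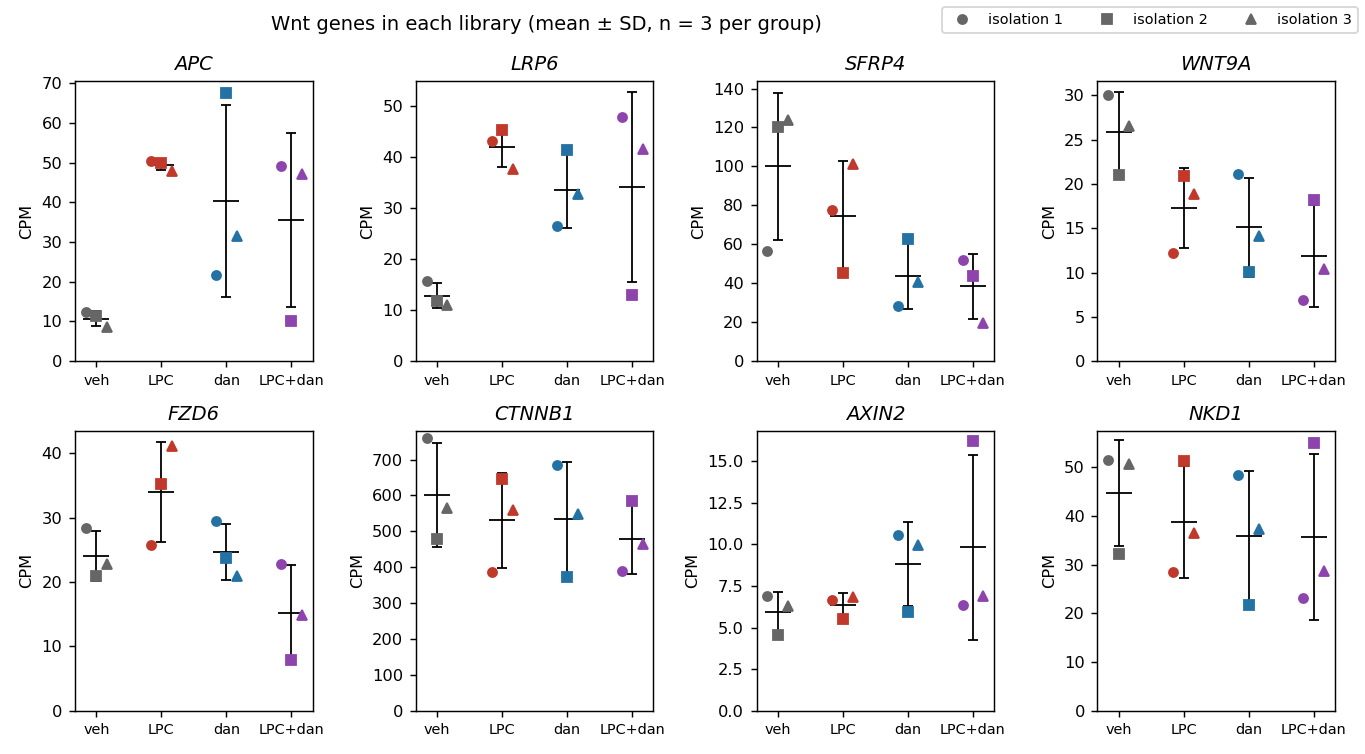
CPM of 8 Wnt genes in each of the 12 libraries on linear axes from 0, with 1 marker shape per isolation and black bars for the mean ± SD of 3 libraries (veh, vehicle; dan, dantrolene). In APC and LRP6 the treated libraries sit above the 3 vehicle libraries apart from the square of isolation 2 in LPC + dantrolene, which lies among them.

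LRP6, the co-receptor that passes the signal of a bound Wnt to the destruction complex (ENSSSCG00000000625, chr5:60149041-60318719), also rose in all 3 comparisons with vehicle. Its level was 15.7, 11.8 and 10.98 CPM in vehicle, 43.1, 45.2 and 37.7 CPM with LPC, and 26.4, 41.4 and 32.7 CPM with dantrolene. The LPC + dantrolene libraries held 47.8, 12.9 and 41.5 CPM. Vehicle did not overlap with LPC or with dantrolene, and replicate 2 of LPC + dantrolene lay within the vehicle range. LRP6 rose 3.27-fold with LPC (log2 1.71 ± 0.36, adjusted p = 0.000257), 2.61-fold with dantrolene (log2 1.38 ± 0.35, adjusted p = 0.00425) and 2.66-fold with LPC + dantrolene (log2 1.41 ± 0.35, adjusted p = 0.00387) by edgeR's quasi-likelihood test. It was higher than vehicle in 3 of 3 isolations in each comparison. The dantrolene call was lost without vehicle replicate 2 (adjusted p = 0.057) or dantrolene replicate 2 (0.0714), and the LPC + dantrolene call without vehicle replicate 2 (0.057) or LPC + dantrolene replicate 1 (0.0909) and with only those 2 groups in the fit (0.0514). The 4 libraries with the lowest APC and LRP6 levels, the 3 vehicle libraries and replicate 2 of LPC + dantrolene, were the same 4 that had the lowest TMM factors. The part of library composition in these changes was not tested. On total counts alone APC and LRP6 were called in all 3 comparisons with vehicle. For these as for all members, fewer cells of a type and less RNA per cell cannot be told apart in bulk RNA.

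LRP5, the close relative of LRP6, was not called with all libraries. It was at 207, 141 and 182 CPM in vehicle, 127, 108 and 143 CPM with LPC, 148, 83.6 and 111 CPM with dantrolene and 80.1, 184 and 104 CPM with LPC + dantrolene. The vehicle and LPC libraries overlapped at their edges only, and the LRP5 log2 fold changes of -0.49, -0.63 and -0.53 had adjusted p-values of 0.536, 0.332 and 0.543. RYK and ROR2, receptors of the non-canonical branch, stayed between 74.0 and 166 CPM and between 61.7 and 130 CPM. ROR1, a receptor for WNT5A singled out here after its values were seen, was at 13.5, 20.1 and 24.4 CPM with LPC and at 7.79, 8.08 and 8.27 CPM with LPC + dantrolene, which did not overlap. Vehicle, at 21.4, 7.36 and 12.2 CPM, and dantrolene, at 14.2, 7.16 and 7.31 CPM, each overlapped both of these groups. The share of all genes without overlap between 2 groups was not counted.

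Among the secreted antagonists, SFRP4 was lower in both groups with dantrolene. SFRP4 encodes a secreted protein that binds Wnt ligands through a Frizzled-like domain (ENSSSCG00000035299, chr9:108404314-108414335). It was at 56.4, 120 and 124 CPM in vehicle and at 77.5, 45.5 and 101 CPM with LPC. With dantrolene it was at 28.5, 62.6 and 40.5 CPM, and with LPC + dantrolene at 51.8, 43.7 and 19.6 CPM. All LPC + dantrolene libraries were below all vehicle libraries, and the dantrolene libraries overlapped vehicle by 1 library. SFRP4 fell 2.28-fold with dantrolene, a log2 fold change of -1.19 ± 0.35 (adjusted p = 0.0177), and 2.61-fold with LPC + dantrolene, -1.38 ± 0.35 (adjusted p = 0.00478), by edgeR's quasi-likelihood test, and was lower in 3 of 3 isolations in both. With LPC alone the SFRP4 log2 fold change was -0.42 ± 0.35 (adjusted p = 0.62).

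The dantrolene call of SFRP4 did not survive several other settings. With the isolation as a replicate block its adjusted p was 0.0586, with DESeq2 0.0697 and on total counts alone 0.169. Leaving out vehicle replicate 2 or 3, LPC replicate 2, or dantrolene replicate 1 or 3 gave 0.165, 0.158, 0.054, 0.218 and 0.0714. The LPC + dantrolene call of SFRP4 was lost on total counts alone (0.0653), with only those 2 groups in the fit (0.0899), and without vehicle replicate 2 (0.0806), vehicle replicate 3 (0.054) or LPC + dantrolene replicate 3 (0.135). DES, a smooth muscle marker, was also lower with dantrolene (log2 -1.30) and with LPC + dantrolene (log2 -1.63), and the part of cell composition in the SFRP4 change was not tested.

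The other antagonists did not pass the test with all libraries. DKK3, an atypical Dickkopf, was at 973, 758 and 1093 CPM in vehicle and 481, 1153 and 507 CPM with LPC + dantrolene, so that replicate 2 lay above the other 2 libraries of its group and above every vehicle library. SFRP1 showed the same split, with 607, 644 and 775 CPM in vehicle and 318, 876 and 377 CPM with LPC + dantrolene. SFRP2 was between 147 and 455 CPM and WIF1, which binds and holds Wnt proteins, between 24.1 and 55.1 CPM, and in both the vehicle libraries overlapped each treated group. Counted by direction alone, 7 of 8 antagonists had a log2 fold change below 0 with dantrolene (median -0.57) and 6 of 8 with LPC + dantrolene (median -0.40). Of all 45 members, 31 and 29 were below 0 in these 2 comparisons, where the medians over all genes were -0.11 and -0.08. On total counts alone the antagonists below 0 were 6 of 8 (median -0.33) and 6 of 8 (median -0.25). All members below 0 were then 25 and 26 of 45, with medians over all genes of 0.13 and 0.12. The share of all genes below 0 was not counted.

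Of the ligands, WNT9A (ENSSSCG00000024671, chr2:51102757-51128346), which acts through the canonical branch in joint and blood stem cell development, was the only one called. It was at 30.0, 21.0 and 26.5 CPM in vehicle, 12.2, 20.8 and 18.8 CPM with LPC, and 21.1, 10.1 and 14.1 CPM with dantrolene. The LPC + dantrolene libraries held 6.94, 18.2 and 10.4 CPM, all below the lowest vehicle library. WNT9A fell 2.18-fold with LPC + dantrolene, a log2 fold change of -1.13 ± 0.35 (adjusted p = 0.0321 by edgeR's quasi-likelihood test), and was lower in 3 of 3 isolations. Its log2 fold changes with LPC (-0.58 ± 0.35, adjusted p = 0.473) and with dantrolene (-0.78 ± 0.35, adjusted p = 0.208) had the same sign without passing. The call was lost with the replicate block (0.0922), DESeq2 (0.0657), relative log expression factors (0.0518), total counts alone (0.105) and only those 2 groups in the fit (0.196). It was also lost on leaving out vehicle replicate 1, 2 or 3 (0.19, 0.0582 and 0.115), LPC replicate 1 or 2 (0.0512 and 0.0735) or LPC + dantrolene replicate 1 or 3 (0.292 and 0.2).

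WNT5B, a non-canonical ligand, was at 63.0, 43.7 and 60.3 CPM in vehicle and 95.7, 54.5 and 83.1 CPM with dantrolene, groups that overlapped (log2 0.48 ± 0.32, adjusted p = 0.527). WNT5A was at 1.43, 1.23 and 1.05 CPM in vehicle and 1.84, 0.543 and 1.44 CPM with LPC. It was at 2.63, 1.52 and 1.91 CPM with dantrolene and 2.53, 3.17 and 3.06 CPM with LPC + dantrolene. All 6 libraries with dantrolene lay above all 3 vehicle libraries, but at these few counts the log2 fold changes of 0.70 ± 0.59 and 1.23 ± 0.59 did not pass (adjusted p = 0.663 and 0.301). WNT16 was at 1.57, 3.91 and 3.49 CPM in vehicle and 1.53, 0.994 and 0.652 CPM with LPC + dantrolene (log2 -1.49 ± 0.58, adjusted p = 0.119). The remaining ligands WNT2B, WNT9B, WNT10B and WNT11 were between 0.271 and 3.47 CPM in every library. The RefSeq span of WNT10B overlaps that of WNT1, the span of WNT5B that of FBXL14 and the span of WNT2B that of ST7L. Of the other members, CTNNB1, AXIN2, DVL1, DVL2, FZD1 and FZD9 also overlap other protein-coding genes. The part of such overlaps in the levels was not tested.

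No Frizzled receptor passed the test with all libraries. FZD7 was at 140, 117 and 140 CPM in vehicle, 109, 88.3 and 130 CPM with LPC, 56.3, 92.8 and 80.5 CPM with dantrolene and 60.4, 129 and 56.5 CPM with LPC + dantrolene. All dantrolene libraries were below all vehicle libraries, at a log2 fold change of -0.79 ± 0.33 (adjusted p = 0.148). FZD6, singled out after its values were seen, was at 28.4, 21.0 and 22.7 CPM in vehicle and 25.7, 35.2 and 41.1 CPM with LPC, against 22.8, 7.89 and 14.9 CPM with LPC + dantrolene. FZD9 had the largest fold change of any member with LPC + dantrolene against vehicle, log2 -1.79 ± 0.99 (adjusted p = 0.441), but it was at 0.763, 1.58 and 1.22 CPM in vehicle and 0.947, 0 and 0.0501 CPM with both agents, so that this fold rests on a few counts.

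Genes of receptor turnover, the Dishevelled relay and the nuclear effectors also did not pass in any comparison. LGR4, the receptor through which R-spondins protect Frizzleds from removal, was at 19.6, 19.8 and 14.1 CPM in vehicle, 23.5, 29.4 and 28.1 CPM with LPC and 25.3, 5.84 and 18.0 CPM with LPC + dantrolene. LPC lay wholly above vehicle for LGR4, yet the log2 fold change of 0.60 ± 0.35 did not pass (adjusted p = 0.455). ZNRF3, a ligase that removes Frizzleds from the membrane and is a Wnt target, was at 14.8 ± 3.06 CPM in vehicle and between 9.46 and 10.7 CPM on average in the treated groups. RNF43, its paralogue, was found through its gene identifier (ENSSSCG00000017640) with 131 counts in all and was not called.

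DVL1, which relays the signal from Frizzled to the destruction complex, was between 148 and 292 CPM, and its vehicle libraries alone spanned 148 to 292 CPM. DVL3, singled out after its values were seen, was at 126, 124 and 93.4 CPM in vehicle and at 65.1, 58.7 and 79.7 CPM with LPC, without overlap (log2 -0.75 ± 0.33, adjusted p = 0.185). With dantrolene DVL3 was at 121, 49.9 and 79.9 CPM, and with LPC + dantrolene at 75.9, 121 and 104 CPM, both overlapping vehicle. CTNNB1 was at 761, 477 and 564 CPM in vehicle, 386, 646 and 561 CPM with LPC, 686, 372 and 549 CPM with dantrolene, and 390, 583 and 466 CPM with LPC + dantrolene. The 4 groups overlapped throughout, with log2 fold changes of -0.18, -0.17 and -0.32 (SE 0.33 each), and the 95% interval of each included 0. LEF1, a DNA-binding partner of beta-catenin and a target of the pathway, was at 9.06 ± 4.16, 7.29 ± 0.77, 7.69 ± 3.17 and 9.25 ± 2.02 CPM in vehicle, LPC, dantrolene and LPC + dantrolene. NKD1, a feedback inhibitor that binds Dishevelled, was at 51.6, 32.2 and 50.6 CPM in vehicle and 23.2, 55.0 and 28.7 CPM with LPC + dantrolene, which overlapped. Of the feedback genes AXIN2, NKD1, LEF1, RNF43 and ZNRF3, none was called in any of the 6 comparisons by edgeR or had an unadjusted p under 0.05, the smallest being 0.0602 for AXIN2 with LPC + dantrolene against vehicle.

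Adding dantrolene to LPC changed no Wnt gene beyond the threshold. In LPC + dantrolene against LPC, 0 of 45 members were called higher against 0.219% of all genes, and 0 lower against 0.288%, by edgeR's quasi-likelihood test, and DESeq2 also called 0. At an unadjusted p under 0.05, 1 member was higher (WNT5A) and 5 were lower (ROR1, FZD6, SFRP4, WNT16 and LGR4), together 13.3% of members against 6.61% of all genes. ROR1 came closest, at log2 -1.27 ± 0.36 (adjusted p = 0.0991). FZD6 was at -1.16 ± 0.34 (adjusted p = 0.123) and passed without replicate 1 of LPC + dantrolene (log2 -1.57, adjusted p = 0.0239). WNT16 had the largest fold change in this comparison, log2 -1.51 ± 0.57 (adjusted p = 0.411). APC (-0.48 ± 0.37) and LRP6 (-0.30 ± 0.34) were not called.

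In LPC + dantrolene against dantrolene, 0 of 45 were called higher against 0.0151% of all genes and 0 lower against 0.00757% by edgeR's quasi-likelihood test, and DESeq2 again called 0. One member, FZD6, had an unadjusted p under 0.05 there (log2 -0.70 ± 0.34, adjusted p = 1). FZD9, at log2 -1.05 ± 0.99, had the largest fold change.

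The interaction, the effect of LPC in the presence of dantrolene less its effect without it, was below 0 for APC and LRP6. The effect of LPC on APC was 2.21 on the log2 scale without dantrolene and -0.18 with it, a difference of -2.39 ± 0.53 (adjusted p = 0.0024). For LRP6 the effect was 1.71 without dantrolene and 0.02 with it, a difference of -1.68 ± 0.49 (adjusted p = 0.0278), both by edgeR's quasi-likelihood test and below 0 in 3 of 3 isolations. These were 2 of 45 members called lower (4.44%) against 4.49% of all genes tested, and 0 members were called higher against 0.159%, with 1 (DVL3) higher at an unadjusted p under 0.05 and 0 by DESeq2. Without replicate 2 of LPC + dantrolene the differences were -2.02 (adjusted p = 0.00169) and -1.37 (adjusted p = 0.0291). APC averaged 49.4 CPM with LPC, 40.3 CPM with dantrolene and 35.5 CPM with both, and LRP6 42.0, 33.5 and 34.1 CPM. The APC difference was lost with DESeq2 (adjusted p = 0.0635) and without LPC replicate 2 (0.0847) or dantrolene replicate 2 (0.103, log2 -1.79). The LRP6 difference was lost with the replicate block (0.074), which left 1 member called, on total counts alone (0.0926), and without vehicle replicate 2 or 3 (0.118 and 0.0661), LPC replicate 1 or 2 (0.0989 and 0.158) or dantrolene replicate 2 (0.175).

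**Figure D4:**
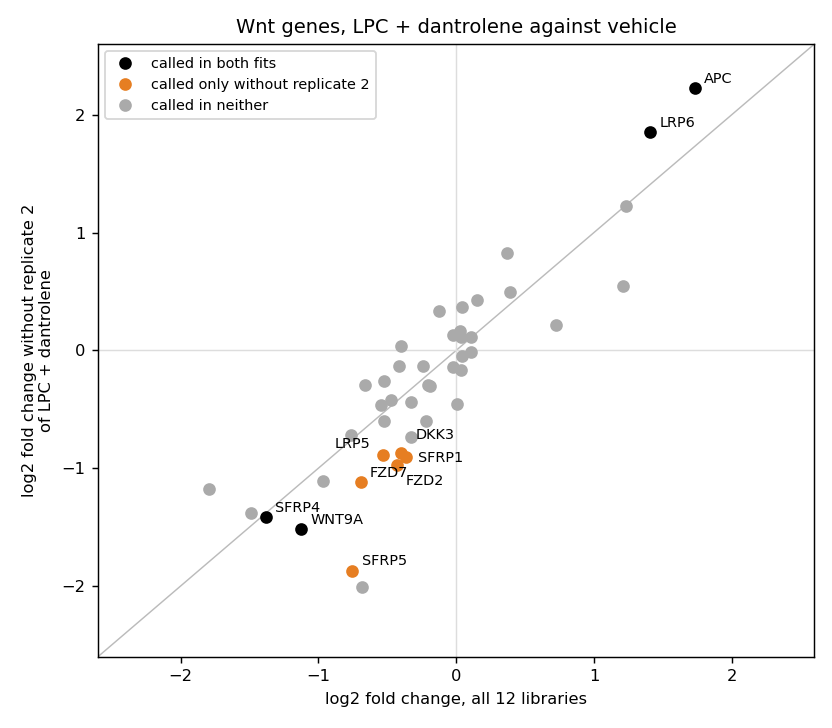
Log2 fold change of the 45 Wnt genes in LPC + dantrolene against vehicle with all 12 libraries (horizontal axis) and without replicate 2 of LPC + dantrolene (vertical axis), black where called in both fits and orange where called only without it; the diagonal marks equal values. The 6 orange genes all lie below 0 and below the diagonal.

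The number of Wnt genes called lower with both agents depended on replicate 2 of LPC + dantrolene. Without that library, LPC + dantrolene against vehicle called 2 members higher (4.44%), against 12.9% of all genes, and 8 lower (17.8%), against 3.12%. The 2 were APC and LRP6. The 8 were SFRP4 and WNT9A, now at log2 -1.42 and -1.52, and 6 further genes. These were the antagonists SFRP1 (-0.90, adjusted p = 0.0263), SFRP5 (-1.87, adjusted p = 0.0172) and DKK3 (-0.87, adjusted p = 0.0411), the receptors FZD2 (-0.98, adjusted p = 0.0251) and FZD7 (-1.12, adjusted p = 0.00294), and the co-receptor LRP5 (-0.89, adjusted p = 0.026), all by edgeR's quasi-likelihood test. With replicate 2 present none of these 6 passed, at log2 values between -0.75 and -0.37. The median of the 45 members was -0.29 without that library, beside -0.08 over all genes. SFRP5 was at 2.84, 7.02 and 0 CPM with LPC + dantrolene and at 2.72, 4.32 and 9.47 CPM in vehicle. With replicate 2 left out, its call thus rests on replicate 1, which lay within the vehicle range, and replicate 3, which had no count.

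The same omission also moved dantrolene against vehicle, which shares its estimate of spread with the other groups (the SE of the APC change went from 0.38 to 0.29), where 2 members were then higher (4.44%) against 11.6% of all genes and 3 lower (6.67%) against 2.07%. The 3 were SFRP4, SFRP5 (log2 -1.40, adjusted p = 0.046) and FZD7 (log2 -0.73, adjusted p = 0.0427). SFRP5 was at 2.72, 4.32 and 9.47 CPM in vehicle and 2.74, 1.71 and 1.47 CPM with dantrolene, and the lowest vehicle library lay just under the highest dantrolene library. These values were chosen for description after the library had been seen to stand apart.

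Other genes of the pathway, taken from a list of 72 components that are not members, held 61 that were tested. With LPC 8 of the 61 rose (13.1%), against 8.54% of all genes, and none fell, with a list median of -0.26 on the log2 scale beside -0.18 over all genes. Those that rose included the formin DAAM1 (log2 1.40), which links Dishevelled to the cytoskeleton, the kinases MAPK8 (1.19) and MAP3K7 (1.10), the tankyrase TNKS2 (1.24) and the deubiquitinase USP34 (2.13), both of which act on AXIN, and PYGO1 (1.28), a co-activator of beta-catenin. With dantrolene 4 rose (6.56%, against 7.54% of all genes), among them USP34 (2.01) and PYGO1 (1.20), and CELSR1, a cadherin of planar polarity, fell (adjusted p = 0.0413), at a list median of -0.05. The same 4 rose with LPC + dantrolene (6.56%, against 6.23%), none fell, and the list median was 0.01. USP34 was at 15.0, 10.9 and 7.44 CPM in vehicle, 48.6, 52.9 and 44.7 CPM with LPC, 21.2, 69.0 and 43.7 CPM with dantrolene and 60.3, 18.5 and 66.8 CPM with LPC + dantrolene. All treated libraries lay above vehicle, with replicate 2 of LPC + dantrolene the lowest of them. Without that library the list's calls with LPC + dantrolene were 10 higher (16.4%, against 12.9% of all genes) and 2 lower (3.28%, against 3.12%). In that fit 10 were higher with LPC (16.4%, against 12.3%) and 0 lower. With dantrolene 9 were then higher (14.8%, against 11.6%) and 2 lower (3.28%, against 2.07%). In the interaction 5 genes of the list were called lower (8.2%, against 4.49% of all genes), among them USP34, DAAM1 and MAPK8. Without replicate 2 of LPC + dantrolene 3 were called lower in the interaction (4.92%, against 3.93% of all genes). In LPC + dantrolene against LPC or against dantrolene 0 were called by edgeR, by DESeq2, or at an unadjusted p under 0.05.

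Of 24 downstream target genes listed, 19 were tested. With LPC 0 were called by edgeR, by DESeq2, or at an unadjusted p under 0.05. With dantrolene 5 of the 19 fell (26.3%), against 1.26% of all genes, and none rose: BIRC5 (log2 -1.62), an inhibitor of apoptosis made in dividing cells, CCN4 (-1.20) and CCN5 (-1.15), matricellular proteins first found as Wnt-induced genes, TNFRSF11B (-1.18), which encodes the RANKL decoy osteoprotegerin, and BMP4 (-1.04). With LPC + dantrolene 3 of the 19 fell (15.8%), against 0.9% of all genes: BIRC5 (-1.37), CCN5 (-1.33) and TNFRSF11B (-1.58). TNFRSF11B was at 8.04, 12.2 and 19.5 CPM with LPC and 5.997, 3.42 and 1.65 CPM with LPC + dantrolene, which did not overlap. It was the only gene of the lists called between those 2 groups (log2 -1.85 ± 0.40, adjusted p = 0.00619 by edgeR's quasi-likelihood test). With DESeq2 2 of the target genes were called with dantrolene, and 3 with LPC + dantrolene, and the share of all genes under DESeq2 is not given. The list median was -0.23 with LPC, -0.45 with dantrolene and -0.27 with LPC + dantrolene. These genes answer to other pathways as well, so their levels do not measure Wnt activity alone.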

How the data were processed

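RNA from 12 cultures of porcine aortic valve interstitial cells was enriched for poly-A RNA and sequenced. The deposited table held counts per gene, which the authors had adjusted for batch effects with ComBat, so they are whole numbers but no longer raw reads. The methods of the study do not name the batch. The degrees of freedom spent on that adjustment are not counted here, which can make p-values too small. The submitters' processing notes name HISAT2 2.0.5, R 4.1.1, DESeq2 1.32.0 and build Sscrofa11.1, whereas the methods of the study name STAR. Strand was not stated. Tables of the authors' own comparisons (log2 fold changes, standard errors, test statistics and p-values) were not used.

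Counts were tested with the quasi-likelihood test of edgeR 4.0.16 in R 4.3.3 with TMM factors and filterByExpr, in a single fit of the 4 groups without covariates, and adjusted by Benjamini-Hochberg over 13216 genes. A gene was called at an adjusted p under 0.05. A negative log2 fold change is lower in the first-named group. The alternatives were DESeq2 1.42.0, scaling by relative log expression (RLE) or by library totals, a filter of 10 counts in each library or no filter at all, a fit of the 2 groups compared, the isolation as a replicate block, and the omission of each library in turn. Counts on the lists of other pathway and target genes under these settings were added after the data were seen. The test was tried on simulated counts before use.

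Groups and replicate numbers came from the sample titles. The methods of the study describe 3 experiments, each from a separate isolation and with 1 replicate per group. Equal replicate numbers were therefore taken to be 1 isolation, and such libraries to be paired by their cells. After ComBat, libraries of the same isolation did not deviate together (median correlation of deviations -0.15, range -0.54 to 0.21). Replicates of a group correlated at 0.901 to 0.975. Libraries held 16489684 to 24105935 counts, which puts 3 counts at 0.114 to 0.186 CPM, a limit for counting error only.

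Genes were named where they were called in any comparison, had the highest mean CPM of their role or the largest fold change of a comparison, were feedback genes (AXIN2, NKD1, LEF1, RNF43, ZNRF3), or were WNT5A or ligands and antagonists with a mean of at least 10 CPM. Others are named only as stated in the text. Some called genes of the pathway list are not reported here. The members, lists and rule were chosen with earlier results of these data known. Symbols were those of the table, and positions came from RefSeq by symbol, which matched all 45 members. No sequence was used.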

Additional observations from a re-analysis of the deposited data

Results flagged for a closer look

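For 2 genes the effect of LPC differed between cells with and without dantrolene, as tested by the interaction in edgeR's quasi-likelihood fit. For APC the difference was -2.39 on the log2 scale (adjusted p = 0.0024), from 2.21 without dantrolene to -0.18 with it. For LRP6 it was -1.68 (adjusted p = 0.0278), from 1.71 to 0.02. Both differences were below 0 in 3 of 3 isolations. These were 4.44% of the 45 members, beside 4.49% of all genes tested that were called lower in the interaction, so the share was near that of all genes. The LRP6 call was lost in 7 of 18 alternatives, among them the isolation as a replicate block (adjusted p = 0.074). The APC call was lost in 3 of 18, among them DESeq2 (adjusted p = 0.0635).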

How the results depend on the processing

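None of the called changes turned its direction under any alternative run. For LPC against vehicle, APC and LRP6 were called in 19 of 19 alternatives, and APC was called in 19 of 19 for LPC + dantrolene against vehicle. The number of Wnt genes called, 3 with dantrolene, 4 with LPC + dantrolene and 2 in the interaction, changed as follows. With only the 2 groups compared in the fit it was 5 with dantrolene and 1 with LPC + dantrolene. On total counts alone it was 2 with LPC + dantrolene and 1 (APC) in the interaction. DESeq2 called 1 (LRP6) in the interaction. With the isolation as a replicate block, the paired fit, it was also 1 (APC) in the interaction, and the block otherwise ended the calls of SFRP4 with dantrolene and WNT9A with LPC + dantrolene and no others. Smaller changes came from other settings. SFRP4 with dantrolene was lost by DESeq2 and on total counts alone, and WNT9A with LPC + dantrolene by DESeq2 and with RLE factors. SFRP5 with dantrolene was gained without a filter, and WNT16 with LPC + dantrolene at 10 counts in every library.

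Leaving out 1 library at a time gave 2 to 2 called genes for LPC, 1 to 5 for dantrolene and 1 to 10 for LPC + dantrolene against vehicle, 0 to 1 for LPC + dantrolene against LPC, 0 to 0 against dantrolene and 0 to 3 for the interaction. Omitting LPC + dantrolene replicate 2 gave 5 for dantrolene, and omitting replicate 2 of vehicle or of dantrolene gave 1. The LPC + dantrolene count was 10 without its own replicate 2, 1 without vehicle replicate 2, and 2 without vehicle replicate 3 or its own replicate 3. The interaction count was 3 without replicate 1 of LPC + dantrolene, 0 without replicate 2 of LPC or dantrolene, and 1 without vehicle replicate 2 or 3 or LPC replicate 1. The cause of these changes was not tested. Without replicate 2 of LPC + dantrolene the share of all genes called lower with both agents moved too, from 0.9% to 3.12%. For the other settings the share of all genes is not given. The counts of members and lists there cannot tell a change in these genes from a change in calling over all genes. RLE factors, no filter and at least 10 counts in every library kept all 6 counts within 1.5 times the reported ones. Over all alternatives the other pathway genes called higher ranged from 4 to 10 with LPC, 2 to 9 with dantrolene and 3 to 10 with LPC + dantrolene, and 0 to 8 were lower in the interaction. The target genes called lower ranged from 0 to 6 with dantrolene, 0 to 5 with LPC + dantrolene and 0 to 2 for LPC + dantrolene against LPC. With 3 libraries per group and levels of a few CPM, the ligands other than WNT5B and WNT9A could show only large differences.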
